A study of Sus scrofa with 32 samples.

Results

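The stroma (S) is the connective tissue of the endometrium between its luminal epithelium (LE), its glandular epithelium (GE) and its blood vessels (BV). Its response to pregnancy was measured on Day 14, when the porcine conceptus begins to attach to the uterine wall. Areas of S were cut from frozen sections by laser capture microdissection and sequenced for 4 pregnant gilts (libraries PS139, PS39, PS41 and PS43, numbered by gilt) and 4 cyclic, nonpregnant gilts (CS128, CS40, CS42 and CS78), 8 of the 31 libraries of the series that were analysed. All gilts were prepuberal animals brought to ovulation with the gonadotropins eCG and hCG. The pregnant gilts were inseminated with semen of a German Landrace boar and the cyclic gilts with the supernatant of spun semen from the same boar. Endometrium of the pregnant gilts came from the reddened zones where conceptuses had been attached and were taken off, a choice of site that the cyclic gilts could not share, so that site and pregnancy cannot be told apart. The genes described are the 11935 that the authors kept in their filtered table of S, of the 13887 kept in at least 1 of the 4 compartments and of 30185 counted.

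Stromal fibroblasts make and remodel the collagen matrix of the endometrium, carry the receptors for progesterone and estrogens, and pass hormonal signals to the epithelium as secreted growth factors. The pig conceptus does not invade: it attaches to LE, secretes estrogens and interferons while it elongates, and stays separated from the stroma by an intact epithelium. Products of stromal fibroblasts leave the cell through the endoplasmic reticulum (ER) and the Golgi apparatus, and their shape and contraction depend on actin filaments and microtubules.

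Total counts per S library ran from 2832169 to 5388161, with a median of 4360135.5 in cyclic and 3108136.5 in pregnant gilts, and 3 counts over a group of 4 libraries amount to 0.174 CPM for the cyclic and 0.224 CPM for the pregnant group. CPM, the unit of levels here, are counts scaled to the library totals after TMM normalization. Markers of stromal fibroblasts, chosen to check the label and led by collagen genes, summed to between 41157 and 111656 CPM in the cyclic and between 48324 and 98000.3 CPM in the pregnant libraries. Epithelial markers (keratins, claudins, EPCAM and CDH1 among 16 genes, none of them at 0 in all libraries) summed to between 14.2 and 213 CPM in the cyclic and between 46.9 and 561 CPM in the pregnant libraries, against a level of 3305 CPM in LE and 2278 CPM in GE. Leukocyte markers ranged from 579 to 767 CPM over the cyclic and from 712 to 1477 CPM over the pregnant libraries. Smooth muscle and pericyte markers ranged from 662 to 2357 CPM and from 849 to 1939.6 CPM. None of the 7 marker lists passed an exact permutation test over the gilts (smallest adjusted p = 0.4, for leukocytes, and p = 0.0286 is the smallest that 4 against 4 allows before adjustment). After adjustment over 7 lists, a single list at that smallest p would not come under 0.05. The test therefore cannot show that the groups are equal in any of them. Of 9 trophoblast markers, CYP17A1, CYP19A1, CYP19A2, IL1B2 and CDX2 had no count in any S library. With CYP19A3, PAG6, IFNG and HAND1, the list summed to between 0 and 0.810 CPM in the cyclic libraries. In the pregnant libraries the sum ran from 0 to 10.9 CPM, with PS43 highest.

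Pregnant S differed from cyclic S in few genes at the limit used. Higher in pregnant S were the clock genes NR1D1 and DBP, the lysosomal enzymes CTSF and ACP5, the amino acid transporter SLC43A2, the endocytic adaptor STON2, the calcium channels TRPV5 and TRPV6 and the cell surface proteins SEMA6A and SDK1. Lower were the versican-cleaving protease ADAMTS9, the heparan sulfate carrier GPC4, the secreted DKK3, the ER chaperone HSPA5 and a group of cytoskeletal genes with ACTA2, TUBA1B, MAP1B and MICAL2. Of the higher genes just named, ACP5, STON2, TRPV5 and TRPV6 had a level in LE or GE of 4 times that in S or more. The part of epithelial RNA in their S values was not tested. In all, 35 of 11935 genes (0.293%) were called, 22 higher (0.184%) and 13 lower (0.109%). A gene was called where its unadjusted p in edgeR's quasi-likelihood test was at most 3.28e-04, the largest p at a false discovery rate of 1% in the same test of LE. In S itself this limit is looser, and the largest adjusted p among the called genes was 0.106. At a false discovery rate of 1% within S no gene passed the quasi-likelihood test, against 207 in the robust GLM of edgeR and 167 in DESeq2, and 1735 genes (14.5%) had an unadjusted p under 0.05, 894 of them positive (7.49%) and 841 negative (7.05%). The count rested on single libraries: it was 14 without CS128, 12 without CS40, 12 without PS43 and 52 without CS78. With any 1 library left out, STON2, LOC100519934, SLC43A2, TRPV5 and ADAMTS9 were always called, and SLC35B3 and DBP never. The sign of all 35 was the same throughout, which non-overlapping groups all but fix in advance when 1 library is dropped. With library totals in place of TMM factors, 15 genes were called higher and 24 lower. In all 35 called genes the pregnant and cyclic values did not overlap, as in 1046 of all genes (8.76%). That share is the background for each mention of non-overlap below, where most genes were named for a small p. In these bulk captures, fewer cells of a type and less RNA of a gene per cell cannot be told apart.

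**Figure D1:**
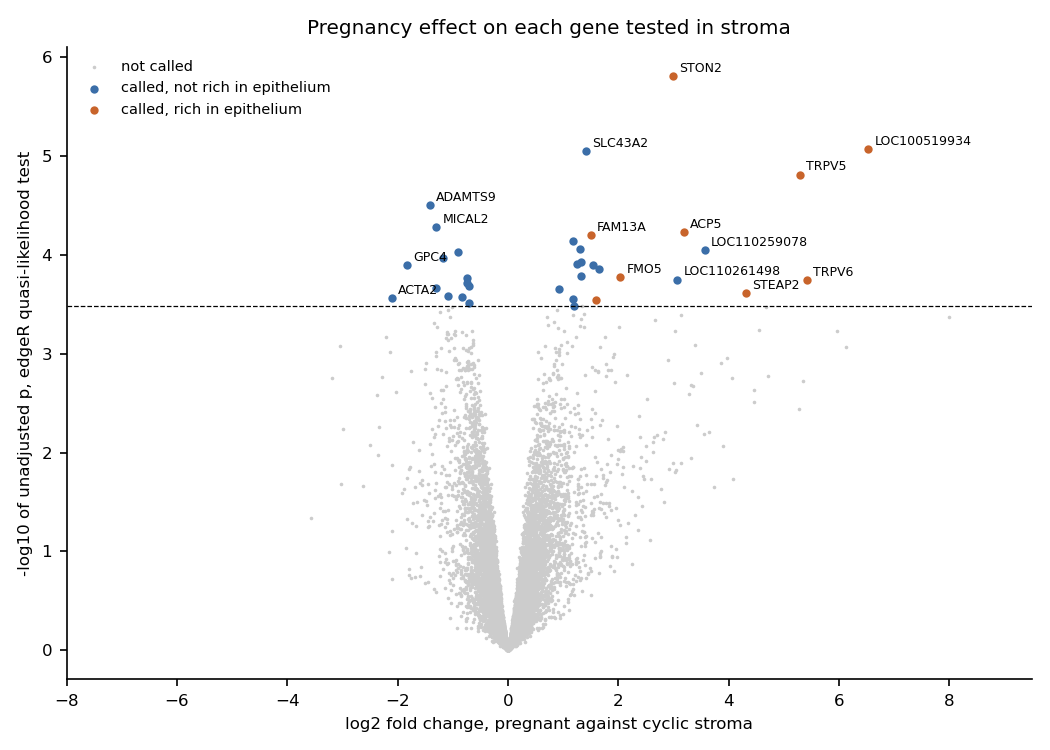
Each point is 1 of the 11935 genes tested in S, with the log2 fold change of pregnant against cyclic gilts on the x axis and −log10 of the unadjusted p of the quasi-likelihood test on the y axis; the dashed line is the limit of 3.28e-04. The 22 called genes on the right reach larger fold changes than the 13 on the left, and the 9 orange genes, 4-fold or more above S in LE or GE, are all on the right.

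Some called genes are shown with the genome sequence just before their annotated start (Sscrofa11.1, from RefSeq, 5′ to 3′ on the strand of the gene), chosen as called members of gene sets described next: an ER chaperone, a lysosomal protease and the pair of clock genes. Capitals mark matches to the motifs searched on both strands, which are the ER stress element in HSPA5 and CACGTG (the E-box, which is bound by the clock proteins CLOCK and ARNTL) in CTSF, and no motif of the search lies in the stretches of NR1D1 and DBP.
HSPA5 (chr1:265934953-265935209, minus strand): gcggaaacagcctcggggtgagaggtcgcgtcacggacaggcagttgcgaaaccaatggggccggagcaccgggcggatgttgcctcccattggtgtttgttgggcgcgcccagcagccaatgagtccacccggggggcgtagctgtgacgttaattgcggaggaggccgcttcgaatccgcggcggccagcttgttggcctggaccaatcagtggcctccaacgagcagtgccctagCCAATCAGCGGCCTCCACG
CTSF (chr2:5854833-5855082, plus strand): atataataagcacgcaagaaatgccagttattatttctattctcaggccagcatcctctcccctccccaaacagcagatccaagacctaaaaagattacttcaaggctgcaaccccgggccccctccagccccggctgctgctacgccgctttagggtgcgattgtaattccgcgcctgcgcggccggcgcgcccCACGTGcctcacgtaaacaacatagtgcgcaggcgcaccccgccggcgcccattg
NR1D1 (chr12:22263299-22263548, plus strand): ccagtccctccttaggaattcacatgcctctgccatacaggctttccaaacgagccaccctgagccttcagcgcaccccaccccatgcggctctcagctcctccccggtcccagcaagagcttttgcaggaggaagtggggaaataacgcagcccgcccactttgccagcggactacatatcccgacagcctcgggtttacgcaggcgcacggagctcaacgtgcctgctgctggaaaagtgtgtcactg
DBP (chr6:53993045-53993294, minus strand): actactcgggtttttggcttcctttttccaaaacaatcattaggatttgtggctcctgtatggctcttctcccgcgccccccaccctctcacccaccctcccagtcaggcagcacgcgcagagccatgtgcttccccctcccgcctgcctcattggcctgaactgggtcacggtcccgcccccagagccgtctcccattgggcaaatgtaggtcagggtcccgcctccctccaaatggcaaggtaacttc

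The match in HSPA5 begins 12 bases before the annotated start and runs past it, and the one in CTSF begins 55 bases before the start. Windows of 300 bases, from 250 before to 50 after the start, could be read for 21 of the 22 higher and all 13 lower genes and for 11751 of all genes tested. The E-box lay in 3 of the 21 higher promoters (14.3%), in 2 of the 13 lower ones (15.4%) and in 9.36% of all. The palindromic estrogen response element, the progesterone and glucocorticoid response element and the ROR element (AGGTCA after 4 letters A or T, the site of NR1D1 itself) lay in none of the 34, and in 0.00851%, 0.255% and 0.485% of all promoters. AP-1 sites (TGANTCA) lay in 1 promoter (ADCY7) and STAT sites (TTCNNNGAA) in 3 (SEMA6A, TRPV6 and ACTA2), against 4.72% and 6.54% of all. These matches describe letters only, and a window without a match says nothing of a factor.

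Of the genes of the folding machinery of the ER and of transport to the Golgi, HSPA5 was called lower in pregnant S, and nearly all others had negative log2 fold changes. HSPA5 (gene ID 407060, chr1:265930044-265934959), the BiP chaperone that binds unfolded proteins in the ER, had 379, 309, 355 and 276 CPM in the cyclic and 184, 188, 208 and 163 CPM in the pregnant gilts (libraries CS128, CS40, CS42 and CS78, then PS139, PS39, PS41 and PS43, an order kept throughout). Every pregnant library lay below every cyclic one, and HSPA5 was called 1.77-fold lower (log2 fold change -0.83, SE 0.15, adjusted p = 0.104). Of the 39 listed genes tested, 37 had a negative log2 fold change, against 5952 of all 11935 genes, and the median was -0.36 against 0.00 over all genes. The call of HSPA5 was lost with any 1 library left out except CS78. HSPA5 was the 1 member called lower and none was called higher. An unadjusted p under 0.05 was found in 17 members, all of them negative, against 7.05% of all genes. DESeq2, at its own limit (2.60% of all genes), called 8 members lower and the robust GLM (3.16%) called 7, and neither called any higher. The smallest p after HSPA5 belonged to KDELR3, the receptor that returns escaped chaperones to the ER, with 81.2, 96.8, 103 and 51.4 CPM in the cyclic and 27.8, 39.4, 39.7 and 34.4 CPM in the pregnant gilts (log2 fold change -1.23, SE 0.23, adjusted p = 0.109). The coat proteins of vesicles that leave the ER came next and did not pass the limit either. SEC23A had 148 ± 31.3 CPM in cyclic and 75.8 ± 13.1 CPM in pregnant gilts (SD, n = 4, log2 fold change -0.97, SE 0.19, adjusted p = 0.11). SEC24D had 232 ± 60.9 CPM in cyclic and 118 ± 10.5 CPM in pregnant gilts (SD, n = 4, log2 fold change -0.97, SE 0.20, adjusted p = 0.111). In both the groups did not overlap, as in 8.76% of all genes. Ribosomal RNA took 11.3 to 15.3% of the counts in cyclic and 14.7 to 16.7% in pregnant libraries, and with its genes left out the median of the list was -0.35. Whether RNA quality had a part in these values was not tested.

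The ER stress element is the site through which unfolded proteins raise chaperone genes, and it lay in 7 of the 39 promoters of this list (17.9%) and in 0.111% of all promoters, a property of the annotation and not of these libraries. The motif was added to the search after values had been seen. Its bearers differed in how far they lay from 0. HSP90B1, the ER form of the chaperone HSP90, had 525, 491, 549 and 399 CPM in the cyclic and 339.8, 312, 367 and 275 CPM in the pregnant gilts (log2 fold change -0.60, SE 0.15, adjusted p = 0.153). Its groups did not overlap, as in 8.76% of all genes. Log2 fold changes of the others were -0.48 in CRELD2, -0.33 in XBP1, -0.29 in CALR, -0.20 in CANX and -0.19 in PDIA6, with unadjusted p between 0.088 and 0.35. DDIT3, the transcription factor that cells raise under lasting ER stress, had a log2 fold change of -0.05 (adjusted p = 0.965).

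Of 29 genes of actin filaments and microtubules tested, 4 were called lower (MICAL2, MAP1B, TUBA1B and ACTA2), against 0.109% of all genes. None was called higher, and 13 had an unadjusted p under 0.05, against 14.5% of all genes. This list was drawn up after values were seen, so its counts are a description of what was noticed, with 27 negative members and a median log2 fold change of -0.52. MICAL2 (gene ID 100519075, chr2:47042475-47302087), an enzyme that takes actin filaments apart by oxidation, had 94.9, 74.8, 74.9 and 96.7 CPM in the cyclic and 26.7, 32.3, 45.3 and 34.4 CPM in the pregnant gilts (log2 fold change -1.30, SE 0.19, adjusted p = 0.0891). MAP1B (gene ID 100519062, chr16:48403338-48501453), which binds and stabilises microtubules, had 203, 172, 200.2 and 145 CPM in the cyclic and 86.9, 93.6, 46.9 and 63.3 CPM in the pregnant gilts (log2 fold change -1.31, SE 0.23, adjusted p = 0.0974). ACTA2 (gene ID 733615, chr14:100868145-100886732), the actin of smooth muscle and of contractile fibroblasts, had 408, 364, 129 and 297 CPM in the cyclic and 94.4, 72.8, 38.05 and 73.4 CPM in the pregnant gilts (log2 fold change -2.10, SE 0.38, adjusted p = 0.104). The pregnant values of all 3 lay below each cyclic value, with CS42 the lowest cyclic library for ACTA2.

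Both called alpha-tubulin genes fell by about the same fold. TUBA1B (gene ID 733594, chr5:15150229-15153620) had 703, 540.3, 425 and 504 CPM in the cyclic and 303, 199.9, 272 and 243 CPM in the pregnant gilts (log2 fold change -1.09, SE 0.19, adjusted p = 0.104). LOC100127131 (gene ID 100127131, chr5:15153516-15269783), annotated as tubulin alpha-1C, had 327, 224, 215 and 245 CPM in the cyclic and 124, 97.3, 133 and 91.9 CPM in the pregnant gilts (log2 fold change -1.18, SE 0.19, adjusted p = 0.0891). The annotated genes overlap by 104 bases and belong to a family of close copies, so reads between them and TUBA1A are uncertain. TUBA1A, which did not pass the limit, had a log2 fold change of -1.10 (adjusted p = 0.11). ACTB and ACTG1, the actins of all cells, had log2 fold changes of -0.25 and -0.29. The actin regulators TPM4 and TAGLN had -1.08 and -1.30 (adjusted p = 0.11 and 0.111), with non-overlapping groups as in 8.76% of all genes. CArG boxes (CC, 6 letters A or T, then GG), the site of serum response factor, lay in 6 of 28 promoters of this list (21.4%), those of TPM4, TAGLN, MYL9, ACTG1, ACTB and CNN2, and in 1.42% of all.

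Smooth muscle markers bear on ACTA2, whose level in BV was 10.8-fold that in S. Their sums overlapped between the groups (exact permutation p = 0.571). Within that list ACTA2, TAGLN, CNN1 and MYH11 were the members with an unadjusted p under 0.05, all negative. MYLK, SMTN, NOTCH3, DES and RGS5 had log2 fold changes of -0.08, 0.02, 0.05, 0.11 and 0.30. The part of smooth muscle cells in the level of ACTA2 was not tested.

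**Figure D2:**
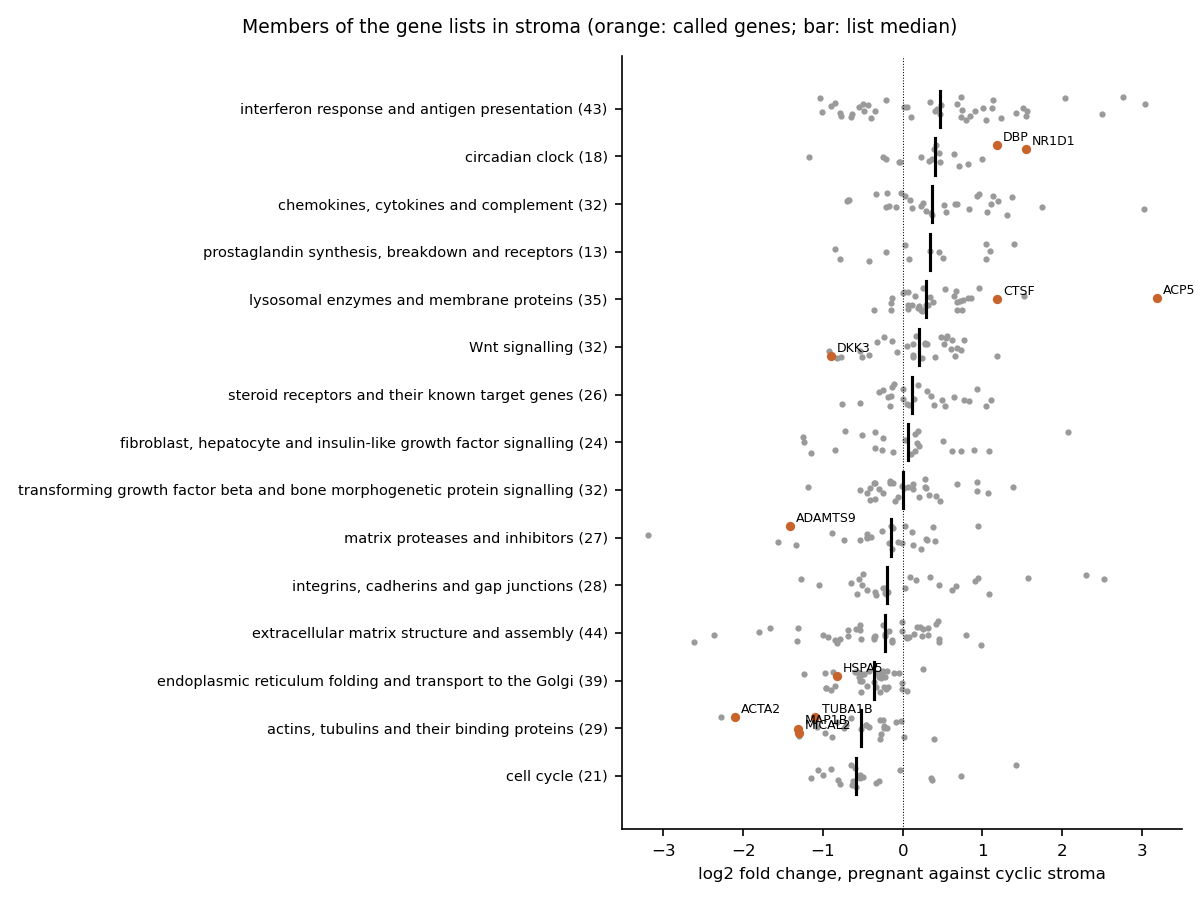
Log2 fold changes of pregnant against cyclic S on the x axis for the members of 15 gene lists, with the number tested in parentheses; orange points are called genes and black bars list medians. The medians run from -0.59 (cell cycle) to 0.47 (interferon response), with the ER list at -0.36 and the actin and tubulin list at -0.52.

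Genes of the extracellular matrix and its proteases were led by ADAMTS9, which was lower in pregnancy. ADAMTS9 (gene ID 100520218, chr13:46033753-46209238), a secreted protease that cuts versican and aggrecan, had 495, 399, 343 and 501 CPM in the cyclic and 129.7, 149, 167 and 207 CPM in the pregnant gilts. It was 2.66-fold lower in pregnant S (log2 fold change -1.41, SE 0.19, adjusted p = 0.0751), and its call held with any 1 library left out. ADAMTS4, a protease of the same family, had 21.3, 46.5, 116 and 217 CPM in the cyclic and 4.79, 5.94, 21.0 and 12.5 CPM in the pregnant gilts, a wide spread in the cyclic gilts (log2 fold change -3.19, SE 0.74, adjusted p = 0.118). Of 27 proteases and inhibitors tested, ADAMTS9 was the 1 called gene, 18 were negative and the median was -0.14, or 0.01 with the epithelial sum as a covariate. The protease inhibitor TIMP1 had 80.5 ± 26.1 CPM in cyclic and 43.4 ± 8.58 CPM in pregnant gilts (SD, n = 4, log2 fold change -0.89, SE 0.26, adjusted p = 0.181).

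None of 44 matrix components and enzymes was called by the quasi-likelihood test. An unadjusted p under 0.05 was found in 10 (9 negative), against 14.5% of all genes. DESeq2 (2.60% of all genes) called 3 lower, and the robust GLM (3.16%) called 7 lower and 2 higher. The median of the 44 was -0.22. COL1A1 and COL3A1, the main fibrillar collagens, had log2 fold changes of 0.14 and -0.14, within 1 SE. P4HA2, which hydroxylates collagen prolines in the ER, had 223, 177, 159 and 129 CPM in the cyclic and 66.4, 106, 91.5 and 96.7 CPM in the pregnant gilts (log2 fold change -0.93, SE 0.20, adjusted p = 0.114). COL14A1, a collagen on the surface of fibrils, had 2947, 3687, 2381 and 2559 CPM in the cyclic and 446, 1476, 1789 and 901 CPM in the pregnant gilts (log2 fold change -1.33, SE 0.38, adjusted p = 0.179). POSTN, which ties collagen to the cell surface, had 39.3, 15.7, 20.9 and 37.5 CPM in the cyclic and 11.2, 11.9, 15.4 and 7.41 CPM in the pregnant gilts (log2 fold change -1.31, SE 0.34, adjusted p = 0.155). Elastin (ELN) lay the other way with 47.1, 25.03, 16.6 and 30.7 CPM in the cyclic and 48.6, 74.3, 49.9 and 64.7 CPM in the pregnant gilts (log2 fold change 0.98, SE 0.29, adjusted p = 0.197). The groups did not overlap in these 4 genes, as in 8.76% of all genes, and none of the 4 passed the limit.

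Called genes of the cell surface and of sulfation were lower in GPC4 and SLC35B3 and higher in SEMA6A and SDK1. GPC4 (gene ID 100156029, chrX:109306489-109421947), a glypican that carries heparan sulfate chains and holds growth factors at the membrane, had 58.5, 53.9, 37.4 and 98.5 CPM in the cyclic and 21.4, 13.0, 17.7 and 17.5 CPM in the pregnant gilts and was 3.56-fold lower (log2 fold change -1.83, SE 0.30, adjusted p = 0.0891). SLC35B3 (gene ID 100157111, chr7:5577410-5606575), which carries the activated sulfate donor PAPS into the Golgi, had 63.8, 64.4, 65.9 and 76.4 CPM in the cyclic and 38.1, 39.8, 41.99 and 41.8 CPM in the pregnant gilts (log2 fold change -0.74, SE 0.13, adjusted p = 0.0942). All pregnant values lay well below the lowest cyclic one. SEMA6A (gene ID 100522008, chr2:120560095-120687597), a transmembrane semaphorin known from the guidance of axons and vessels, rose, with 31.8 ± 11.7 CPM in cyclic and 99.9 ± 22.0 CPM in pregnant gilts (SD, n = 4, log2 fold change 1.64, SE 0.27, adjusted p = 0.0918). SDK1 (gene ID 100512953, chr3:2814418-3327838), an adhesion protein of the immunoglobulin family, rose, with 15.8 ± 3.53 CPM in cyclic and 39.5 ± 8.13 CPM in pregnant gilts (SD, n = 4, log2 fold change 1.33, SE 0.22, adjusted p = 0.0942). Of 28 integrins, cadherins and junction genes none was called, and 6 had an unadjusted p under 0.05 (4 positive), against 14.5% of all genes. DESeq2 (2.60% of all genes) called 2 higher and 1 lower, and the median was -0.20. The integrin ITGA9, which binds tenascin and osteopontin, had 182, 103, 67.3 and 140.3 CPM in the cyclic and 57.5, 45.0, 60.4 and 40.8 CPM in the pregnant gilts (log2 fold change -1.28, SE 0.29, adjusted p = 0.114). Claudin 11 (CLDN11) had 3.42, 5.78, 1.44 and 3.35 CPM in the cyclic and 9.58, 8.17, 9.84 and 14.8 CPM in the pregnant gilts (log2 fold change 1.58, SE 0.38, adjusted p = 0.134), and ITGA8 a log2 fold change of -0.65 (adjusted p = 0.182).

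The circadian clock is a loop in which CLOCK and ARNTL drive the PER, CRY and NR1D genes, which act back on them, and DBP, TEF and HLF carry the rhythm to other genes. NR1D1 (gene ID 641342, chr12:22263549-22274131), the REV-ERB alpha receptor that represses ARNTL, had 18.03, 29.2, 31.3 and 20.4 CPM in the cyclic and 52.7, 97.3, 61.7 and 74.8 CPM in the pregnant gilts and was 2.91-fold higher in pregnant S (log2 fold change 1.54, SE 0.25, adjusted p = 0.0891). DBP (gene ID 100524747, chr6:53986955-53993044) had 12.7, 9.08, 9.36 and 13.2 CPM in the cyclic and 24.6, 31.6, 20.7 and 24.6 CPM in the pregnant gilts and was 2.26-fold higher (log2 fold change 1.18, SE 0.21, adjusted p = 0.104). Every pregnant value of both genes was above the cyclic ones. TEF, a close relative of DBP, had 29.0, 36.9, 34.9 and 46.6 CPM in the cyclic and 53.8, 78.4, 58.7 and 70.1 CPM in the pregnant gilts (log2 fold change 0.82, SE 0.19, adjusted p = 0.117). NFIL3, which opposes DBP at the same DNA sites, had 78.8, 105, 75.3 and 181 CPM in the cyclic and 44.7, 45.0, 64.9 and 41.4 CPM in the pregnant gilts, the other direction (log2 fold change -1.17, SE 0.29, adjusted p = 0.145). Neither passed the limit, and neither overlapped between the groups, as in 8.76% of all genes. Of 18 clock genes tested, NR1D1 and DBP were called, 13 were positive and the median was 0.41. DESeq2 (2.60% of all genes) and the robust GLM (3.16%) each called 3 higher and 1 lower. Log2 fold changes were 0.23 in ARNTL, -0.25 in CLOCK, 0.45 in PER1, 0.37 in PER2 and -0.20 in CRY1. The labels used here give no hour of sampling, and its part in these values was not tested. NR1D1 overlaps THRA on the other strand by 3625 bases, and reads there cannot be assigned without strand. THRA had a log2 fold change of 0.36.

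Of the lysosomal genes, CTSF and ACP5 were higher in pregnant S, and this list too was drawn up after values were seen. ACP5 had a level in LE or GE of 4 times that in S or more, as had LIPA and ASAH1, which were not called. CTSF (gene ID 100520004, chr2:5855083-5860258), a cysteine protease of lysosomes, had 24.7, 36.6, 30.2 and 36.5 CPM in the cyclic and 88.7, 67.6, 67.6 and 65.3 CPM in the pregnant gilts and was 2.26-fold higher (log2 fold change 1.18, SE 0.18, adjusted p = 0.0891), with PS139 highest. Of 35 members tested, CTSF and ACP5 were called higher and none lower, 31 were positive and the median was 0.29. Another 13 members had an unadjusted p under 0.05 and a positive sign, which makes 15 in all, against 7.49% of all genes. DESeq2 (2.60% of all genes) and the robust GLM (3.16%) each called 7 higher. CTSD, the main aspartic protease of lysosomes, had 58.8, 44.0, 46.8 and 51.1 CPM in the cyclic and 78.7, 89.2, 78.1 and 84.2 CPM in the pregnant gilts (log2 fold change 0.71, SE 0.14, adjusted p = 0.109). PSAP, the precursor of the proteins that help to degrade sphingolipids, had 453, 509, 417 and 501 CPM in the cyclic and 1167, 579, 1095 and 808 CPM in the pregnant gilts (log2 fold change 0.96, SE 0.22, adjusted p = 0.118). GRN, a lysosomal and secreted glycoprotein, had 116 ± 27.0 CPM in cyclic and 196 ± 11.7 CPM in pregnant gilts (SD, n = 4, log2 fold change 0.75, SE 0.18, adjusted p = 0.118). The groups did not overlap in CTSD, PSAP or GRN, as in 8.76% of all genes. Macrophages are rich in lysosomes. The leukocyte markers had a log2 difference of 0.60 in their sum (exact permutation p = 0.0571, adjusted p = 0.4) and 12 of 13 members positive. Log2 fold changes were 1.05 in AIF1, 0.81 in TYROBP and 0.64 in CSF1R. CD14, ITGAM and CD68 had 0.45, 0.42 and 0.36 (unadjusted p between 0.275 and 0.407), and CD163 was the negative member at -0.10. The part of leukocytes in the lysosomal values was not tested. The letters TCACGTGA, the core of the motif bound by the lysosomal regulator TFEB and a form of the E-box, lay in 4 of 35 promoters (11.4%) and in 1.6% of all.

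Several called genes of transport and signalling were higher with little spread. SLC43A2 (gene ID 100623009, chr12:47791911-47839127), the amino acid transporter LAT4, had 19.4, 18.2, 22.0 and 19.9 CPM in the cyclic and 56.6, 64.6, 43.3 and 48.2 CPM in the pregnant gilts (log2 fold change 1.42, SE 0.17, adjusted p = 0.0356), and it was 1 of the 4 genes that reached a false discovery rate of 5% within S. INPP5K (gene ID 100462756, chr12:47717898-47738540), a phosphatase of inositol phospholipids, had 13.1, 12.7, 7.92 and 14.1 CPM in the cyclic and 29.0, 30.5, 29.2 and 25.9 CPM in the pregnant gilts (log2 fold change 1.25, SE 0.20, adjusted p = 0.0891). The annotation places both on chromosome 12, 53371 bases apart. BMF (gene ID 110261428, chr1:131178021-131199668), a BH3-only protein that starts apoptosis, had 24.5, 24.2, 18.4 and 26.5 CPM in the cyclic and 65.9, 69.1, 40.3 and 57.6 CPM in the pregnant gilts (log2 fold change 1.31, SE 0.20, adjusted p = 0.0891). ADCY7, an adenylyl cyclase that makes cyclic AMP, rose, with 22.1 ± 3.16 CPM in cyclic and 41.8 ± 4.46 CPM in pregnant gilts (SD, n = 4, log2 fold change 0.92, SE 0.16, adjusted p = 0.0974). TCP11L2 rose, with 41.6 ± 8.20 CPM in cyclic and 94.9 ± 24.7 CPM in pregnant gilts (SD, n = 4, log2 fold change 1.20, SE 0.22, adjusted p = 0.106).

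The remaining called genes include unnamed loci. LOC574051 (gene ID 574051, chr7:20743716-20744356), annotated as a histone H1.2-like gene, had 56.0, 36.0, 32.4 and 50.1 CPM in the cyclic and 139.6, 103, 94.5 and 101 CPM in the pregnant gilts (log2 fold change 1.32, SE 0.21, adjusted p = 0.0891). LOC110259078 (gene ID 110259078, on a contig not placed on a chromosome), annotated like an olfactory receptor, had 2.09, 3.03, 0.720 and 4.52 CPM in the cyclic and 54.5, 21.5, 13.1 and 41.4 CPM in the pregnant gilts (log2 fold change 3.57, SE 0.55, adjusted p = 0.0891). The noncoding LOC110261498 (gene ID 110261498, chr7:24876382-24881014) rose from a low level, with 0.734 ± 0.446 CPM in cyclic and 6.45 ± 2.52 CPM in pregnant gilts (SD, n = 4, log2 fold change 3.07, SE 0.52, adjusted p = 0.0942). Lower in pregnancy were DKK3, MAGED1, ALDH1L2 and LYSMD3. DKK3 (gene ID 664653, chr2:47385244-47444664), a secreted relative of the Wnt inhibitors of the Dickkopf family, had 72.7, 80.6, 77.1 and 81.6 CPM in the cyclic and 38.8, 48.7, 35.4 and 44.5 CPM in the pregnant gilts (log2 fold change -0.90, SE 0.14, adjusted p = 0.0891). It lies 83157 bases from MICAL2 on chromosome 2, which was lower as well. MAGED1 (gene ID 414852, chrX:45258761-45329282), an adaptor protein of the MAGE family, had 382, 424, 404 and 351 CPM in the cyclic and 246, 210.3, 244 and 236 CPM in the pregnant gilts (log2 fold change -0.74, SE 0.13, adjusted p = 0.0968). ALDH1L2 (gene ID 100151976, chr5:79492672-79558702), a mitochondrial enzyme of folate metabolism, had 185, 194, 206 and 167 CPM in the cyclic and 121, 118, 107 and 118 CPM in the pregnant gilts (log2 fold change -0.70, SE 0.12, adjusted p = 0.0974). LYSMD3 had 86.3 ± 8.81 CPM in cyclic and 52.9 ± 2.65 CPM in pregnant gilts (SD, n = 4, log2 fold change -0.71, SE 0.13, adjusted p = 0.106). These last 3 differed by 1.62- to 1.67-fold between groups of small spread.

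**Figure D3:**
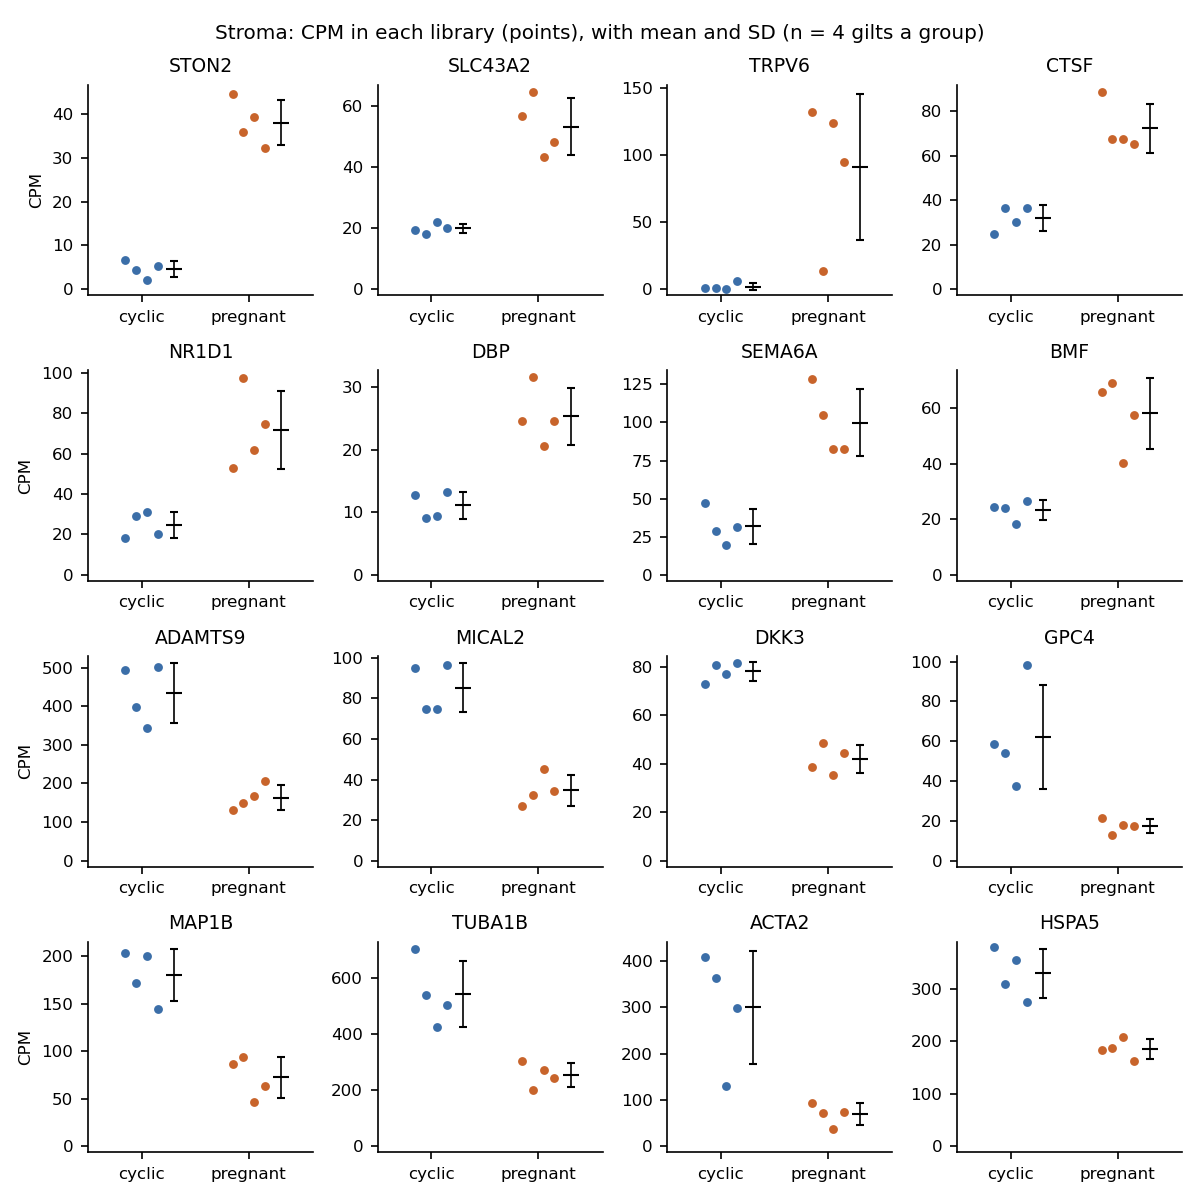
CPM (y axis) of 16 called genes in each S library, cyclic gilts in blue and pregnant gilts in orange, with the mean and SD of 4 gilts beside them. No group overlaps with the other in any panel, and TRPV6 runs from 13.4 to 132 CPM among the pregnant gilts.

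Of the 22 higher genes, 9 (40.9%) had a level in LE or GE of 4 times that in S or more, against 836 of all genes tested (7.005%) and none of the 13 lower genes. They are STON2, LOC100519934, TRPV5, TRPV6, STEAP2, FAM13A and SCML1, whose level was highest in LE, and ACP5 and FMO5, highest in GE. STON2 (gene ID 100157426, chr7:104034913-104189735), an adaptor of endocytosis, had 6.64, 4.40, 2.16 and 5.19 CPM in the cyclic and 44.7, 36.0, 39.4 and 32.3 CPM in the pregnant gilts (log2 fold change 2.998, SE 0.29, adjusted p = 0.0185), the smallest p of all genes. LOC100519934 (gene ID 100519934, chr1:73119758-73124368), a noncoding RNA, had 0.949, 1.93, 0.360 and 0 CPM in the cyclic and 119.7, 23.8, 93.2 and 54.6 CPM in the pregnant gilts (log2 fold change 6.53, SE 0.76, adjusted p = 0.0356). FAM13A (gene ID 100517722, chr8:130021581-130327731) had 43.3, 41.3, 45.0 and 48.8 CPM in the cyclic and 172, 77.6, 129 and 125 CPM in the pregnant gilts (log2 fold change 1.5, SE 0.22, adjusted p = 0.0891). In each the pregnant gilts were above the cyclic ones, by far in LOC100519934, which had no count in CS78, where 3 counts equal 0.557 CPM.

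TRPV5 and TRPV6 are the calcium channels through which epithelia take up calcium. TRPV5 (gene ID 100622162, chr18:7285186-7341965) had 0.569, 0.275, 0.360 and 0.168 CPM in the cyclic and 19.6, 3.34, 18.04 and 17.2 CPM in the pregnant gilts (log2 fold change 5.30, SE 0.66, adjusted p = 0.0461). TRPV6 (gene ID 100171400, chr18:7332253-7348383) had 0.949, 0.550, 0 and 5.70 CPM in the cyclic and 132, 13.4, 124 and 95.3 CPM in the pregnant gilts (log2 fold change 5.42, SE 0.92, adjusted p = 0.0942). PS39 was the lowest pregnant library for both. Their annotations overlap by 9712 bases on the same chromosome and the genes are close copies, so the split of reads between them is uncertain. STEAP2, which reduces iron and copper, rose, with 1.14 ± 0.973 CPM in cyclic and 25.7 ± 19.5 CPM in pregnant gilts (SD, n = 4, log2 fold change 4.32, SE 0.76, adjusted p = 0.103). ACP5 (gene ID 397414, chr2:70206159-70209855), known as uteroferrin, an iron-binding acid phosphatase that uterine glands secrete for the conceptus, had 5.88, 4.95, 11.5 and 12.1 CPM in the cyclic and 40.1, 52.0, 146 and 75.1 CPM in the pregnant gilts (log2 fold change 3.18, SE 0.47, adjusted p = 0.0891). FMO5, a flavin monooxygenase, rose, with 12.7 ± 2.88 CPM in cyclic and 52.2 ± 24.8 CPM in pregnant gilts (SD, n = 4, log2 fold change 2.03, SE 0.34, adjusted p = 0.0942). SCML1, related to the polycomb proteins, rose, with 7.45 ± 2.67 CPM in cyclic and 22.3 ± 5.05 CPM in pregnant gilts (SD, n = 4, log2 fold change 1.6, SE 0.29, adjusted p = 0.104).

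The sum of the epithelial markers moved in the same direction as these genes without passing a test (log2 difference 1.72, exact permutation p = 0.229, adjusted p = 0.667 over 7 lists). That test cannot show that the groups have equal sums. Set against LE of the same gilt, the sum in S was 6.05, 0.640, 0.374 and 5.12% in CS128, CS40, CS42 and CS78 and 12.02, 1.66, 18.4 and 4.93% in PS139, PS39, PS41 and PS43. That share times the CPM of a gene in LE of the same gilt can be set beside the CPM measured in S, both scaled here over the 31 libraries jointly. STON2 measured 46.0, 34.7, 39.8 and 31.6 CPM, against 24.0, 4.55, 32.7 and 11.2 CPM at the share in the pregnant gilts, and was above it in all 4. FAM13A measured 177, 74.8, 130.2 and 123 CPM, against 139.1, 21.9, 120.3 and 42.2 CPM at the share, also above in all 4. In the cyclic gilts FAM13A already measured 42.8, 40.3, 42.96 and 50.4 CPM, against 2.75, 0.779, 0.545 and 16.3 CPM at the share. Whether the rise of FAM13A over its cyclic level exceeded the share was not tested. TRPV6 measured 136, 12.9, 125 and 93.2 CPM, against 161, 21.7, 167 and 74.3 CPM at the share, above it in PS43 alone.

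TRPV5 measured 20.2, 3.22, 18.2 and 16.8 CPM, against 30.5, 4.75, 37.6 and 17.2 CPM at the share, below it in each pregnant gilt. STEAP2 measured 52.6, 4.30, 28.5 and 18.8 CPM, against 52.1, 6.97, 37.7 and 26.1 CPM at the share, just above it in PS139 and below it in the others. LOC100519934 measured 123, 22.9, 94.1 and 53.4 CPM, against 94.6, 20.3, 125 and 35.3 CPM at the share, above in 3 of 4. SCML1 measured 29.8, 16.1, 21.5 and 21.7 CPM, against 38.9, 3.70, 15.8 and 8.31 CPM at the share, also above in 3 of 4. SCML1 was above its share in each cyclic gilt too. For ACP5, with GE in place of LE and the gilts of PS139, PS39 and PS43, the measured values were 41.3, 50.1 and 73.5 CPM against 1238, 94.1 and 409 CPM at the share. FMO5 was above its share in 1 of these 3 gilts. With the epithelial sum as a covariate, STON2, LOC100519934, TRPV5, TRPV6, STEAP2 and ACP5 were still called and FAM13A, FMO5 and SCML1 were not. Of all 35 genes, 19 were called in that fit, and CTSF, DBP, HSPA5, ACTA2 and MAP1B were among those that were not. The covariate has the same slope in pregnant and cyclic gilts. It cannot allow for a gene whose level in LE itself differs between them. TRPV6 had 51.5, 41.5, 46.7 and 107 CPM in cyclic LE and 1339, 1303, 907 and 1506 CPM in pregnant LE. The part of epithelial RNA in the S values of the genes rich in epithelium was not tested.

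**Figure D4:**
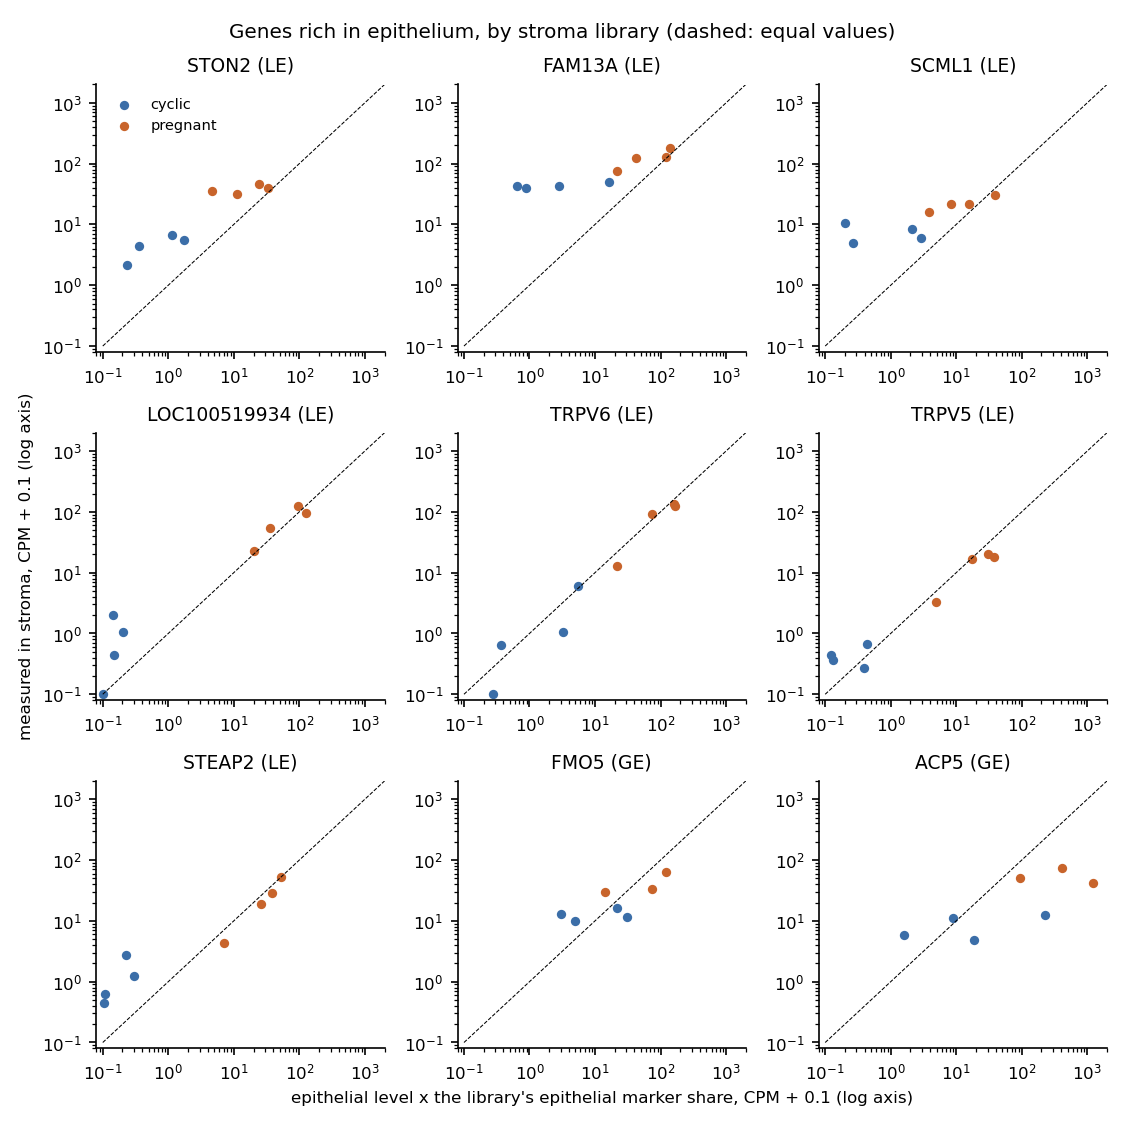
For the 9 called genes rich in epithelium, the CPM measured in each S library (y axis, log scale, 0.1 added) against the CPM of LE or GE of the same gilt times the epithelial marker share of the S library (x axis, log scale, 0.1 added), cyclic in blue and pregnant in orange. Points of TRPV6, TRPV5, STEAP2 and LOC100519934 in pregnant gilts lie near the dashed line of equal values, those of STON2 and FAM13A above it and those of ACP5 below it. In cyclic gilts the points of STON2 and FAM13A lie above the line too.

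Interferon response and antigen presentation genes are those that cells raise under interferons, and none of the 43 tested was called. Their median log2 fold change was 0.47. At an unadjusted p under 0.05 were 14 positive and 3 negative genes, against 7.49% and 7.05% of all genes. DESeq2 (2.60% of all genes) called 1 higher and 1 lower, and the robust GLM (3.16%) 3 and 2. IRF1, a transcription factor induced by interferon gamma, had 35.1, 26.1, 30.97 and 37.4 CPM in the cyclic and 289, 61.7, 22.0 and 159 CPM in the pregnant gilts (log2 fold change 2.04, SE 0.63, adjusted p = 0.207). GBP1, a GTPase against intracellular microbes, had 90.5, 33.3, 29.2 and 39.9 CPM in the cyclic and 1161, 54.2, 26.6 and 346 CPM in the pregnant gilts (log2 fold change 3.03, SE 1.04, adjusted p = 0.237). TAP1, which loads peptides for MHC class I, had 51.8, 30.5, 34.6 and 42.9 CPM in the cyclic and 257, 48.3, 33.5 and 132 CPM in the pregnant gilts (log2 fold change 1.56, SE 0.56, adjusted p = 0.26). In all 3 genes PS139 and PS43 were the highest libraries, PS41 lay below the highest cyclic value, and the groups overlapped. TAPBP, of the same complex, had 80.7, 71.0, 67.7 and 81.3 CPM in the cyclic and 205, 85.5, 82.3 and 167 CPM in the pregnant gilts (log2 fold change 0.85, SE 0.29, adjusted p = 0.244), and IRF2 60.2, 53.6, 56.2 and 52.1 CPM in the cyclic and 97.1, 73.9, 66.3 and 72.4 CPM in the pregnant gilts (log2 fold change 0.48, SE 0.15, adjusted p = 0.207), both without overlap, as in 8.76% of all genes. IFI6, induced by type I interferons, lay the other way with 383, 305, 503 and 468 CPM in the cyclic and 122, 275, 263 and 144 CPM in the pregnant gilts (log2 fold change -1.04, SE 0.29, adjusted p = 0.173). ISG15 and MX1, of the same kind, had log2 fold changes of -0.90 and -0.55.

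Of 32 chemokine, cytokine and complement genes none was called, and the median was 0.37. An unadjusted p under 0.05 was found in 10, all positive, against 7.49% of all genes. DESeq2 (2.60% of all genes) called 1 higher and the robust GLM (3.16%) 4. Complement C3 had 70.03, 95.2, 153 and 38.9 CPM in the cyclic and 669, 1477, 212 and 541 CPM in the pregnant gilts (log2 fold change 3.03, SE 0.60, adjusted p = 0.11), with PS39 highest. Its groups did not overlap, as in 8.76% of all genes. CSF1, a growth factor of macrophages, had 28.8, 26.4, 34.2 and 24.5 CPM in the cyclic and 70.5, 43.5, 30.8 and 74.4 CPM in the pregnant gilts (log2 fold change 0.95, SE 0.28, adjusted p = 0.181). CFD, a protease of complement, had 77.0 ± 29.6 CPM in cyclic and 137 ± 15.7 CPM in pregnant gilts (SD, n = 4, log2 fold change 0.84, SE 0.27, adjusted p = 0.224), and C1QA, a part of complement C1q made by macrophages, 24.4 ± 5.49 CPM in cyclic and 38.8 ± 8.16 CPM in pregnant gilts (SD, n = 4, log2 fold change 0.68, SE 0.21, adjusted p = 0.215). The summed leukocyte markers leaned the same way (exact permutation p = 0.0571), with values overlapping between 712 and 767 CPM, and their part in these levels was not tested.

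The main receptors through which stroma reads ovarian hormones, PGR and ESR1, had log2 fold changes within 1 SE of 0. PGR, the progesterone receptor, had a log2 fold change of 0.08 (SE 0.19) and ESR1, the estrogen receptor alpha, -0.15 (SE 0.17). Of 26 receptors and target genes none was called by any of the 3 tests, and the median was 0.11. An unadjusted p under 0.05 was found in 5 (4 positive), against 14.5% of all genes. KLF9, a target of the progesterone and glucocorticoid receptors, had 11.4, 15.7, 17.6 and 9.22 CPM in the cyclic and 15.7, 45.7, 29.2 and 25.3 CPM in the pregnant gilts (log2 fold change 1.11, SE 0.34, adjusted p = 0.197). HAND2, a stromal transcription factor downstream of progesterone, had 21.6, 20.9, 13.3 and 18.9 CPM in the cyclic and 46.1, 30.5, 22.3 and 28.6 CPM in the pregnant gilts (log2 fold change 0.77, SE 0.25, adjusted p = 0.225). NCOA2, a receptor coactivator, had 89.6 ± 14.1 CPM in cyclic and 127 ± 13.2 CPM in pregnant gilts (SD, n = 4, log2 fold change 0.50, SE 0.15, adjusted p = 0.197). DUSP1, a phosphatase of MAP kinases, had 84.0 ± 33.9 CPM in cyclic and 49.5 ± 12.4 CPM in pregnant gilts (SD, n = 4, log2 fold change -0.76, SE 0.30, adjusted p = 0.3).

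Growth factor lists held the lone call of DKK3. Beside the counts that follow, 14.5% of all genes had an unadjusted p under 0.05. DESeq2 called 2.60% of all genes and the robust GLM 3.16%. Of 24 genes of fibroblast, hepatocyte and insulin-like growth factor signalling none was called by the quasi-likelihood test (4 at an unadjusted p under 0.05, DESeq2 1 higher, robust GLM 2 higher) and the median was 0.06, or -0.19 without CS128. IGF2 had 66.4, 69.0, 104 and 115 CPM in the cyclic and 156, 145, 175 and 183 CPM in the pregnant gilts (log2 fold change 0.89, SE 0.20, adjusted p = 0.114), without overlap, as in 8.76% of all genes. IGF1 had 1748, 3912, 4979 and 2399 CPM in the cyclic and 501, 1116, 2306 and 1624 CPM in the pregnant gilts (log2 fold change -1.23, SE 0.47, adjusted p = 0.286), lower in mean but overlapping. IGFBP2, which binds both, had 3.24 ± 2.96 CPM in cyclic and 12.9 ± 8.65 CPM in pregnant gilts, and IGF1R, their receptor, 158 ± 51.4 CPM in cyclic and 263 ± 62.8 CPM in pregnant gilts (SD, n = 4). HGF, FGF7 and FGF10, the stromal factors that act on epithelium, had log2 fold changes of 0.62, -0.12 and 0.03. Of 32 genes of transforming growth factor beta and bone morphogenetic protein signalling none was called by any test, 5 had an unadjusted p under 0.05, and the median was 0.00. SMAD9 had 6.93 ± 2.40 CPM in cyclic and 13.3 ± 1.89 CPM in pregnant gilts and TGFB3 24.3 ± 14.5 CPM in cyclic and 10.7 ± 1.46 CPM in pregnant gilts (SD, n = 4, adjusted p = 0.204 and 0.23). BMPR1A and GREM1 had log2 fold changes of -0.35 and 1.39. Of 32 Wnt genes DKK3 was called, and 2 had an unadjusted p under 0.05 with a median of 0.20. KREMEN1, AXIN2 and ROR2 had log2 fold changes of 0.73, -0.93 and 0.54, and WNT5A 0.27.

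Cell cycle genes lay lower in median (-0.59 over 21 genes tested) without a call by any of the 3 tests. An unadjusted p under 0.05 was found in 5, against 14.5% of all genes. MCM6, of the helicase that opens DNA for replication, had 68.7, 37.7, 39.2 and 32.7 CPM in the cyclic and 30.1, 24.1, 22.3 and 26.6 CPM in the pregnant gilts (log2 fold change -0.79, SE 0.25, adjusted p = 0.207). CCND1 had 62.1, 85.8, 49.0 and 79.6 CPM in the cyclic and 58.4, 35.7, 42.3 and 39.4 CPM in the pregnant gilts, CCND3 21.4 ± 5.03 CPM in cyclic and 35.6 ± 5.43 CPM in pregnant gilts and the inhibitor CDKN1C 5.90 ± 2.32 CPM in cyclic and 15.6 ± 8.52 CPM in pregnant gilts (SD, n = 4). This median went to -0.09 without CS128, which had the highest MCM6 value. Of 13 prostaglandin genes none was called by the quasi-likelihood test or DESeq2 (2 at an unadjusted p under 0.05, robust GLM 2 higher), and the median was 0.34, or -0.15 with the epithelial sum as a covariate. PTGES3 had 142 ± 9.52 CPM in cyclic and 106 ± 11.6 CPM in pregnant gilts and PTGER2, a receptor for prostaglandin E2, 11.8 ± 10.8 CPM in cyclic and 31.9 ± 19.8 CPM in pregnant gilts (SD, n = 4, adjusted p = 0.203 and 0.329). OXTR and SLCO2A1 had log2 fold changes of 1.05 and 1.04.

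The 17 genes that the study names for S were chosen on these same samples and give no independent evidence of a direction. None was called by the quasi-likelihood test at the limit used, 12 had an unadjusted p under 0.05 (8 positive and 4 negative), DESeq2 called 7 higher and 3 lower, and the robust GLM 9 higher and 7 lower. S100A9, a calcium-binding protein of neutrophils and of inflamed epithelia, had no count in any cyclic library and 512 counts in the pregnant ones, 409 of them in PS139, at least 220-fold higher when 3 counts are put in for all cyclic libraries together. SCN3A, a subunit of voltage-gated sodium channels, had 2 counts in the cyclic and 417 in the pregnant libraries, 294 of them in PS39, a ratio of 268 with an exact 95% binomial interval of 73.8 to 2223 that covers counting error only. SERPINB7, a protease inhibitor rich in epithelium, had 0.380, 0, 0 and 1.34 CPM in the cyclic and 69.5, 1.11, 76.8 and 11.11 CPM in the pregnant gilts (adjusted p = 0.111). SLITRK4, a transmembrane protein of neurons, had 43.1, 19.3, 9.002 and 75.7 CPM in the cyclic and 5.24, 1.86, 5.25 and 5.39 CPM in the pregnant gilts (log2 fold change -3.04, SE 0.63, adjusted p = 0.111). STC1, a hormone of calcium balance, had 6.83, 3.30, 3.60 and 6.87 CPM in the cyclic and 53.8, 5.94, 69.9 and 28.6 CPM in the pregnant gilts (log2 fold change 2.90, SE 0.63, adjusted p = 0.114). CILP, EAF2, HMCN2, COLCA1, ITGA3 and SCNN1A had log2 fold changes of -2.62, -1.30, -1.80, -1.68, 1.08 and 1.58. Of the epithelial transport genes listed after values were seen, TRPV5, TRPV6 and STEAP2 were the 3 called of 13 tested, and the median was 1.58, or -0.08 with the genes rich in epithelium left out.

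Most called genes had a fold change of the same sign in the other compartments. Of the 35, 29 could be tested in all 4 compartments, and their log2 fold change had the sign of S in 28 in LE, 27 in GE and 29 in BV. The share of all genes with the same sign is not given here, so these counts show no trait of the called genes. NR1D1 had log2 fold changes of 2.62 in LE, 3.19 in GE and 1.47 in BV beside 1.54 in S. DBP had 1.47, 2.36 and 1.29 beside 1.18, and HSPA5 -0.54, -0.90 and -1.07 beside -0.83. Libraries of a gilt share the animal, so these are the effects side by side and not separate evidence. Whether the effect in S differed from that in another compartment was tested in a joint quasi-likelihood fit of 31 libraries over 9727 genes. The effect in S minus that in LE was called at an adjusted p of 1% in 88 genes (0.905%), and in 144 genes with the gilt as a block. Against GE 10 genes were called (0.103%). Against BV none was called by the quasi-likelihood test (0.00%), with or without the block or with RLE factors, and 388 genes (3.99%) had an unadjusted p under 0.05 in this contrast. The gilt enters as a block because libraries of different compartments come from the same animals.

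SLC35B3 was the 1 called gene whose effect in S differed from another compartment at 1%. Its log2 fold change was -0.74 in S and 0.29 in LE, a difference of -1.05 (SE 0.16, adjusted p = 0.000319, and 0.000697 with the gilt as a block). Against GE the difference was -0.80 (adjusted p = 0.0299), and against BV -0.67 (adjusted p = 0.938). LYSMD3 differed from GE by -1.01 (adjusted p = 0.0299). SLC43A2, which had a log2 fold change of 3.21 in LE, differed from LE by -1.80 (adjusted p = 0.0252). STON2 differed from GE by 2.73 (adjusted p = 0.0916, and 0.0315 with the gilt as a block). ADAMTS9 had -0.30 in LE, -0.88 in GE and -0.73 in BV beside -1.41 in S, and no difference was called (adjusted p = 0.256 against LE and 0.739 against GE). ACTA2 had -0.93, -3.30 and -1.70 beside -2.10.

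**Figure D5:**
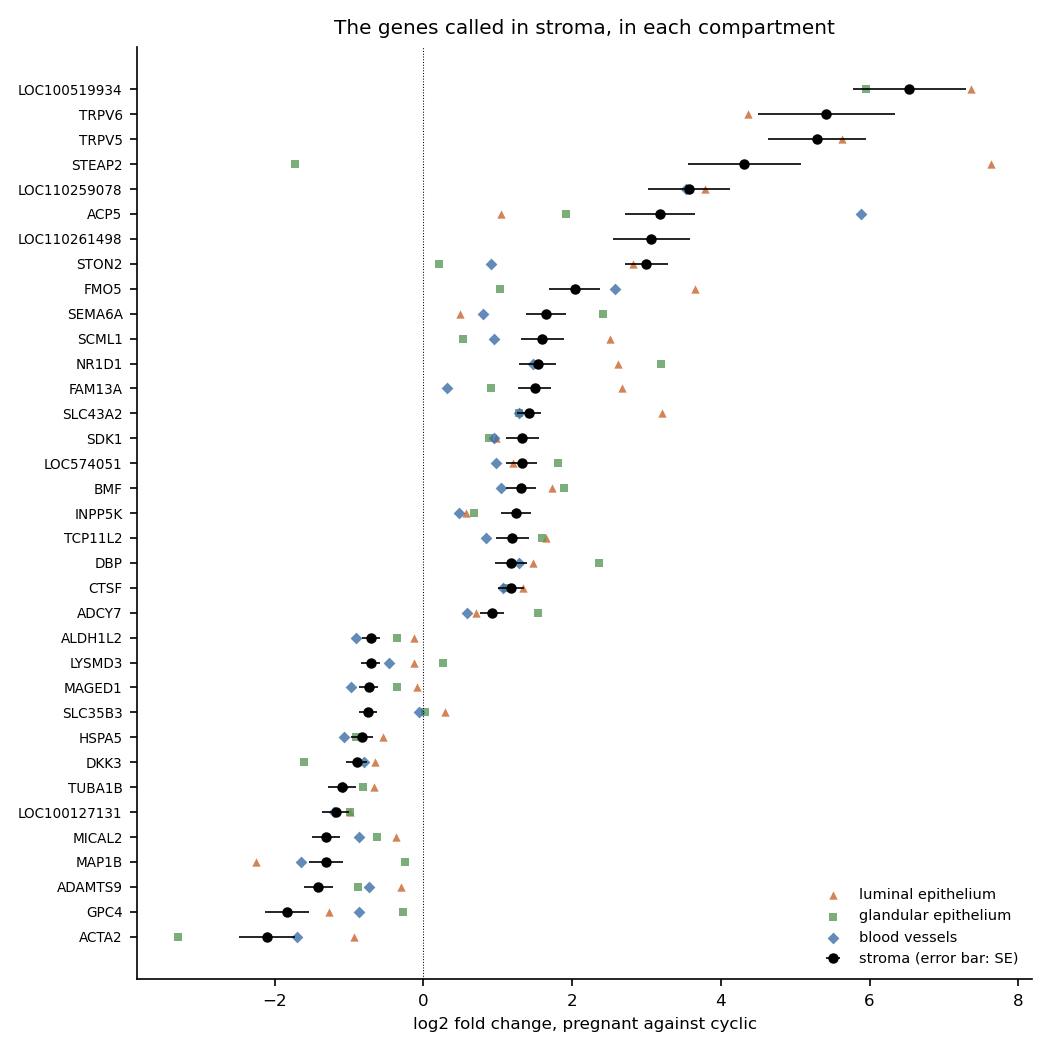
Log2 fold change of pregnant against cyclic gilts (x axis) for the 35 genes called in S, in S (black, with SE), LE, GE and BV, where the gene was kept in the table of that compartment. Symbols lie on the same side of 0 in nearly all rows, and SLC35B3 has its LE, GE and BV symbols near 0 with S at -0.74.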

How the data were processed

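RNA of laser-captured stroma was extracted with the PicoPure kit, and libraries from low input were made by PCR with the Ovation SoLo system. Reads were trimmed by the authors (Trim Galore) and aligned by Hisat2 against the NCBI pig genome Sscrofa11.1. NuGEN nudup then cleared PCR duplicates, and QuasR qCount gave the counts per gene. The deposited tables hold raw counts, and the filtered ones the genes past a CPM cut-off whose value is not given in the sources used here. Whether counting used strand is not given there either. The number of columns of per-sample values left unused was 0. Total counts per library of S (2832169 to 5388161) set the precision, and intervals and floors of 3 counts cover counting error only.

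The counts of the filtered S table were fitted with edgeR 4.0.16 in R 4.3.3 (TMM factors, glmQLFit and glmQLFTest, two-sided, Benjamini-Hochberg adjustment over 11935 genes). The limit of p was taken from the same test of LE at 1%, after the study's own procedure, and the quasi-likelihood test replaced the robust GLM. Differences between compartments were contrasts in a joint fit of 31 libraries over the 9727 genes kept in all 4 tables. DESeq2 1.42.0 (1169 genes without an adjusted p), the robust GLM, RLE factors, other filters and limits, thinning, covariates and each library left out were alternatives. Marker sums, with 0.1 CPM added, were compared by exact permutation. Scripts were tested on simulated data with known changes. The lowest chi-square per degree of freedom between replicate libraries was 10.6, so no library was counted as a repeat.

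Within S the pregnant and cyclic gilts are different animals and unpaired. Across compartments the gilt pairs the libraries: deviations from the group mean correlated with a median of 0.155 between libraries of the same gilt (15 of 23 pairs over 0.1) and -0.041 between other gilts (6 of 69 pairs). The GE library of the gilt of PS41 was not analysed here.

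Members and gene lists were chosen with earlier results of these data known, and 3 lists and 3 of 9 motifs were added after values were seen. Every called gene is named, with each library's value for the 12 smallest p in each direction, and up to 4 members of each list are named by smallest p. Other genes named (receptors, collagens, promoter bearers and the like) were chosen after their values were seen. A gene annotated as PAG1 is not the pregnancy-associated glycoprotein and was left out of the trophoblast markers. Promoter letters were read from the RefSeq genome of the same build with pysam 0.24.0, and plots were drawn with matplotlib 3.10.9.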

Additional observations from a re-analysis of the deposited data

Results flagged for a closer look

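Of 84 groups of 4 libraries looked at, 7 held a library far from the other 3 by Dixon's criterion, where chance gives about 1 in 20. SLC35B3 had 76.4 CPM in CS78, above the other cyclic gilts. TRPV6 had 5.70 CPM in CS78, still below each pregnant gilt. CTSF had 88.7 CPM in PS139, and TRPV5 only 3.34 CPM in PS39. Among marker sums, smooth muscle and pericyte markers reached 1939.6 CPM in PS139. Trophoblast markers reached 10.9 CPM in PS43, and red blood cell markers 1129.9 CPM in CS40. The pregnancy effect on SLC35B3 differed between S and LE by a test of the difference itself, at -1.05 on the log2 scale.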

How the results depend on the processing

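The sign of every called gene was the same in all 761 refits of the 35 genes, 497 of which were past the limit and 264 not (156 of the 280 with 1 library left out). The groups did not overlap in the 35 genes, so with 1 library left out their sign was all but fixed in advance. The counts of 35 called, 22 higher, 13 lower and 9 higher and rich in epithelium became 310, 165, 145 and 54 with DESeq2, 377, 234, 143 and 117 with the robust GLM, 71, 47, 24 and 24 without a filter, and 119, 65, 54 and 24 at an unadjusted p of 0.0012. They were 0 throughout at a false discovery rate of 1% within S, and 4, 4, 0 and 3 at 5%. With genes rich in epithelium left out, 0 such genes remained to be called by construction, and 20 higher and 16 lower genes were called. The epithelial covariate gave 63 called and 44 higher, of which 19 of the 35 were among the 63. Settings chosen after seeing the data were library totals (24 lower) and the smooth muscle covariate (94, 54, 40 and 21). With 1 library left out the counts ran from 12 to 52, 8 to 36, 3 to 28 and 3 to 29. RLE factors, filterByExpr, thinning and leaving out ribosomal RNA kept each within 1.5 times. The cause of these changes was not tested.

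Effects of S minus LE differed in 88 genes, in 144 with the gilt as a block, in 295 at 5% and in 32 to 94 with 1 gilt left out. Effects of S minus GE differed in 10, in 7 with the block, in 46 at 5% and in 0 to 14 with 1 gilt left out, and those of S minus BV in 0 throughout. Among genes called in S, the block changed no call at 1%, and at 5% it added STON2 against GE (adjusted p = 0.0315, against 0.0916 without it). Depth limits low genes: 3 counts per library equal 0.557 to 1.06 CPM. Of 505 list medians under an alternative, 24 took the other sign.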
